A study of Homo sapiens with 4 samples.

Results

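The RNAs described here are 96 Ensembl gene IDs that were counted in the whole-cell RNA of both SRP9 cell lines and in neither of their immunoprecipitates. They were chosen from the deposited counts themselves, as the IDs with at least 50 counts in each input library and exactly 0 in each RNA immunoprecipitation (RIP) library. All 60676 IDs of the series were searched. Of these, 15436 reached the minimum of 50 in each input and are called input-expressed below. The 96 are 0.622% of these IDs, the ones that could have met the rule. The 95% exact binomial interval is 0.504% to 0.759%, which treats IDs as independent draws. The choice fixes that each of the 96 is lower in RIP than in input. That direction is therefore a description and was given no test.

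The cells were MiaPaCa, an established human line of pancreatic cancer. Both lines carried an SRP9 gene with a 3xFLAG tag and a signal that directs the protein to the nucleus, SRP9 v1 in one and SRP9 v2 in the other, from a plasmid that also encodes the green fluorescent protein acGFP1. Transfection was by electroporation, followed by Geneticin selection and by sorting for the fluorescent protein, so each line is a sorted population of transfected cells. The 4 libraries were RIP with variant 1, RIP with variant 2 and the input of each, with 1 library in each group and no replicates. The design text states that the precipitated RNA was sequenced to learn what the variants do in the nucleus. A precipitation from cells without a tagged SRP9 was not analysed here.

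SRP9 is a small protein that pairs with SRP14 and binds the Alu domain of 7SL RNA, the RNA of the signal recognition particle. That particle holds ribosomes that make secreted and membrane proteins and brings them to the endoplasmic reticulum. In a RIP experiment an antibody to the tag pulls down the protein together with the RNA attached to it, and the input shows which RNAs the cells held. A 0 in RIP means only that no read of that RNA was counted in that library.

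The identities of the 96 are known here only as Ensembl IDs. None of the 59792 genes in the reference table is paired with an Ensembl ID, so 0 of the 96 IDs could be matched to a symbol, a gene class, a length or a position. Sequences, gene lists, the level of SRP9 itself and the markers of the cell line were not analysed here for the same reason. A member is therefore called by its rank in input level, and the few IDs printed are those at the ends of each comparison.

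Library totals were 3921361 counts for RIP variant 1, 5211354 for RIP variant 2, 50454080 for the input of variant 1 and 58815384 for the input of variant 2. A 0 allows up to 3 counts by counting error, which is 0.765 CPM with variant 1 and 0.576 CPM with variant 2 (CPM are counts scaled to the library total). The RIP libraries stood apart from the inputs in how their counts were spread. RIP variant 1 had a count on 44658 IDs and RIP variant 2 on 51589. The inputs of variants 1 and 2, although deeper, had a count on only 28372 and 26720 IDs. Each RIP library therefore held counts on IDs that had none in its own input. What put those counts there was not tested. The 15436 input-expressed IDs held 63.0% and 61.9% of the RIP counts (variants 1 and 2), against 99.4% of the counts in each input. The remaining RIP counts lay on IDs below the input minimum, and they are part of the totals behind each RIP share and each bound on library totals below. Reads of amplified libraries are not independent molecules, so all Poisson intervals and limits cover counting error only. The binomial intervals on shares of IDs do not measure that error. They treat IDs as independent draws, although some IDs may share reads.

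Most of the 96 had a low input level in counts. Counts were not corrected for RNA length, so they do not give the abundance of an RNA in the cell. Their level in the input of variant 1 ran from 0.991 to 23.5 CPM with a median of 2.51 CPM, and in the input of variant 2 from 0.850 to 41.1 CPM with a median of 2.76 CPM. In counts, the medians were 126.5 (range 50 to 1185.5) and 162.25 (range 50 to 2416). Together the 96 made up 0.0363% of the counts in the input of variant 1 and 0.0390% in the input of variant 2. Only 2 of them had at least 1000 counts in both inputs, among 7365 such IDs in the series, and 22 had at least 200 in both, among 12077. The 12 with the highest mean input level held 40.9% of all input counts of the 96.

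The member with the highest mean input level was ENSG00000178531. It had 1185.5 counts in the input of variant 1 (23.5 CPM, 95% exact Poisson interval 22.2 to 24.9) and 2416 in the input of variant 2 (41.1 CPM, 39.5 to 42.7), with 0 in each RIP library. At the same share of the library, RIP would hold 92.1 counts with variant 1 and 214 with variant 2. ENSG00000206634, the second by level, had 1083 and 1774 counts in the inputs of variants 1 and 2 (21.5 and 30.2 CPM), where the same shares would give 84.2 and 157 RIP counts. For both, the limit that a 0 allows in RIP was 0.765 CPM with variant 1 and 0.576 CPM with variant 2. The rule chose these IDs by their 0 values, so the gap to the inputs is a description and was not tested.

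The next 4 members had mean input levels from 16.2 down to 11.3 CPM. The third had 819.5 counts in the input of variant 1 and 944.5 in that of variant 2 (16.2 and 16.1 CPM), and the fourth had 628 and 877 (12.4 and 14.9 CPM). The fifth had 643.5 and 626.5 counts (12.8 and 10.7 CPM), and the sixth had 581.57 and 650.07 (11.5 and 11.1 CPM). The Poisson intervals of the last 3 overlapped in the input of variant 1, at 11.5 to 13.5, 11.8 to 13.8 and 10.6 to 12.5 CPM, so their order there is not resolved. Below these 6, no member had 500 counts in both inputs. The member at the bottom of the ranking had 55 and 52 counts (1.09 and 0.884 CPM), where the same share of the RIP libraries would be 4.27 and 4.61 counts.

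How far RIP lay below input could be given only as a lower bound, with each RIP 0 set to 3 counts. The ratios were taken on CPM scaled by TMM, a factor for each library computed from the bulk of the IDs. On that scale the bound was at least 69.6-fold for ENSG00000178531 with variant 1 and at least 161-fold with variant 2. ENSG00000206634 had bounds of 63.6-fold and 118-fold. Over the 96, the bound had a median of 7.43-fold (range 2.94 to 69.6) with variant 1 and 10.8-fold (range 3.33 to 161) with variant 2. It was at least 5-fold with both variants for 64 members, at least 10-fold for 29 and at least 20-fold for 9.

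The scaling sets much of this size. Among the 15436 input-expressed IDs, the median log2 ratio of RIP over input was -1.25 for variant 1 and -1.17 for variant 2 with TMM, against -0.08 and -0.01 on library totals. On library totals ENSG00000178531 had bounds of 30.7-fold with variant 1 and 71.4-fold with variant 2. Those of ENSG00000206634 were 28.1-fold and 52.4-fold. The median bound of the 96 on library totals was 3.28-fold with variant 1 and 4.79-fold with variant 2. It was then at least 2-fold with both variants for 70 of the 96 and at least 10-fold for 7. If both reads of a fragment were counted, a 0 allows 6 counts and every bound is 2 times lower. On library totals 34 members then kept at least 2-fold with both variants, and 26 of the 96 had a bound under 1-fold with at least one variant. The members were also counted by a log2 ratio with a prior count that averaged 2 over the libraries. That prior was in proportion to the scaled totals, so it was smaller in RIP than in input. By this ratio all 96 were at least 2-fold lower in RIP with both variants. That was so for 45.2% of the 15436 IDs with TMM and for 21.9% on library totals, and nothing is read from the members' count because the rule used this contrast.

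**Figure D1:**
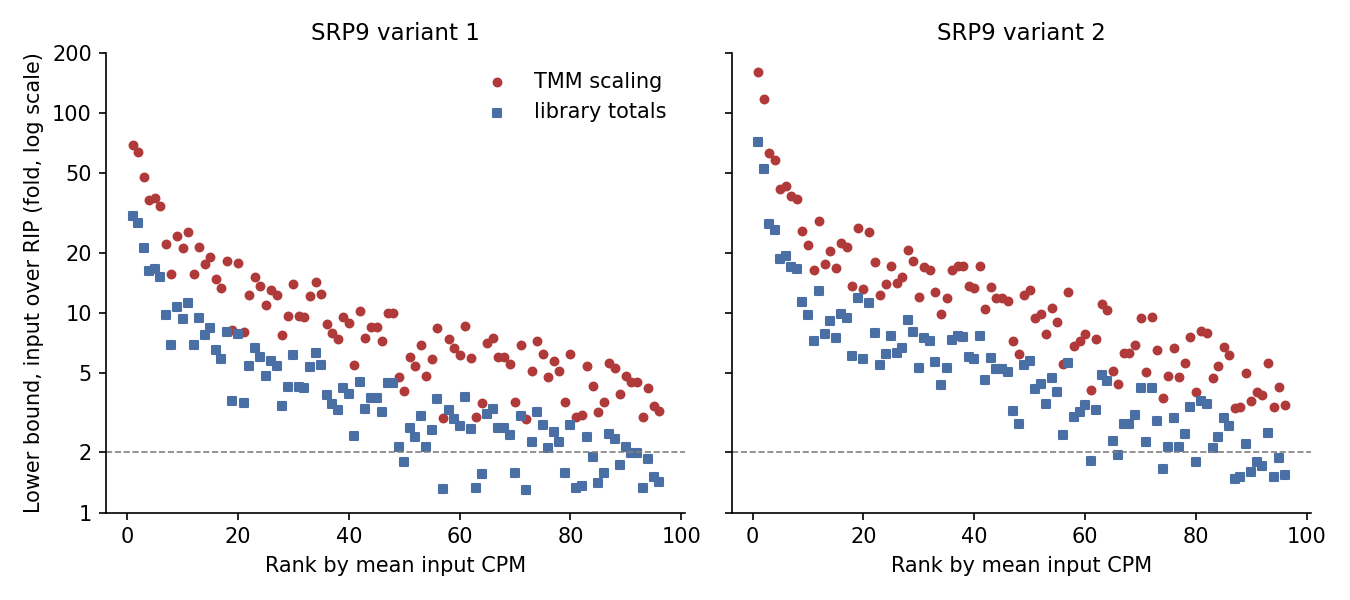
Lower bound of the fold of input over RIP for each of the 96 IDs, on a log scale, ranked by mean input level, with variant 1 on the left and variant 2 on the right. Each RIP value of 0 was set to 3 counts. The TMM bounds run from 2.94 to 69.6 for variant 1 and from 3.33 to 161 for variant 2, and the bounds on library totals (squares) start at 1.30 and 1.48. The dashed line marks 2-fold.

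Most other RNAs of the same input level did have RIP counts. IDs with 50 to under 100 counts in their lower input had median RIP counts of 37 with variant 1 and 55 with variant 2. Of these 1663 IDs, 48.1% had over 100 counts summed over both RIP libraries, and 2.59% (43 IDs) had 0. At their input share of the library totals, those 43 would have had median RIP counts of 6.37 and 7.49 (variants 1 and 2). The medians of 37 and 55 over the range lie above these values, and IDs were not matched by length. At 200 to under 400 input counts the median RIP counts were 55 and 78, while 16 of 1855 IDs (0.863%) were at 0. Among the 8103 IDs whose lower input held 800 counts or more, 3 were at 0 in both (0.0370%, exact binomial interval 0.00764% to 0.108%). Their median RIP counts were 144.67 and 191.5 over all 8103.

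**Figure D2:**
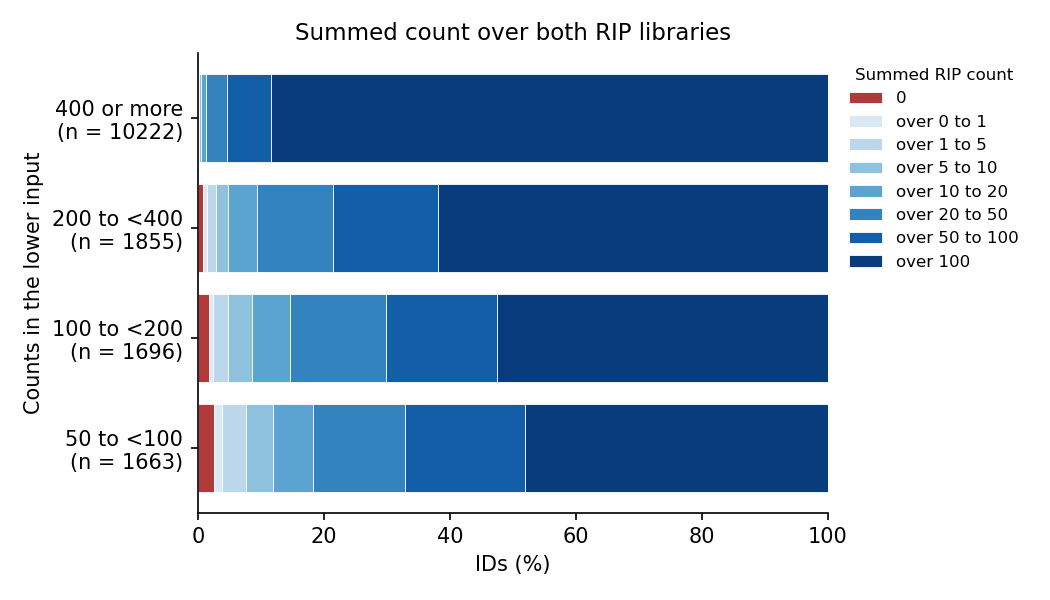
Share of IDs (%) by their summed count over both RIP libraries, for 4 ranges of the count in the lower input. The red segment is the 96 IDs at 0, which make up 2.59%, 1.83%, 0.863% and 0.0587% of the 4 ranges from the lowest input to the highest.

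The 96 are the overlap of the IDs at 0 in each RIP library. Of the 15436 IDs, 527 were at 0 in RIP variant 1 and 193 in RIP variant 2, the deeper of these libraries. The 96 are thus 18.2% of the IDs at 0 in RIP variant 1 and 49.7% of those at 0 in RIP variant 2. The rule used these same 0 values, so the overlap is a description and was not tested. Where RIP variant 1 had a count, 97 of 14909 IDs (0.651%) were at 0 in RIP variant 2. Where RIP variant 2 had a count, 431 of 15243 IDs (2.83%) were at 0 in RIP variant 1. The share at 0 was lower at higher input level in each RIP library, going from 11.1% to 0.555% with variant 1 and from 5.11% to 0.0987% with variant 2.

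**Figure D3:**
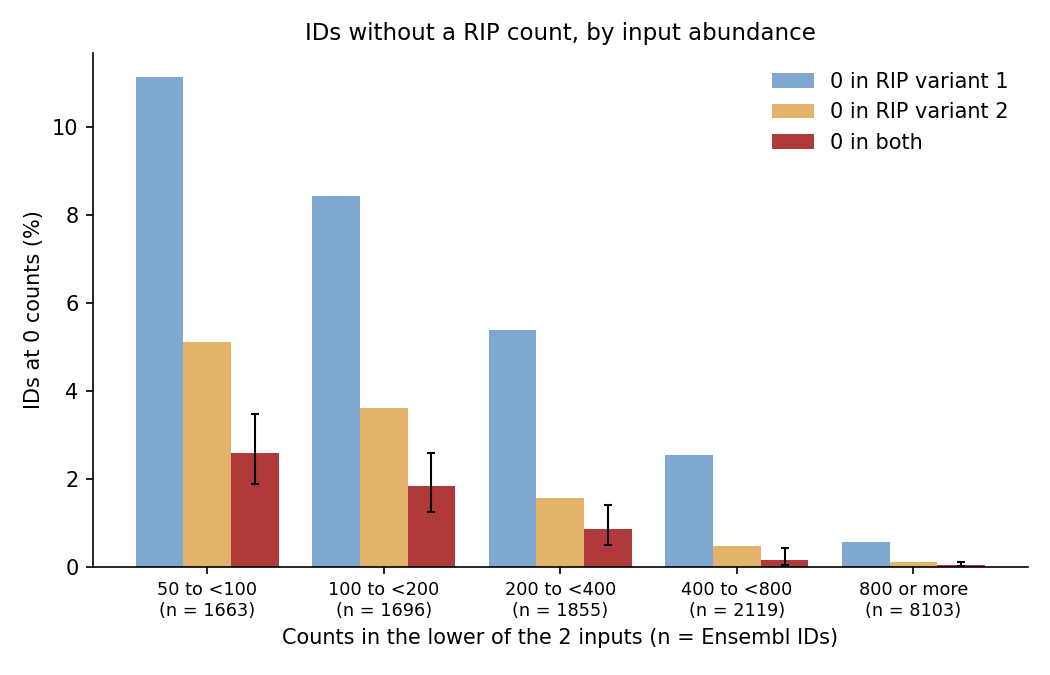
Share of IDs (%) at 0 counts in RIP variant 1, in RIP variant 2 and in both, by the count in the lower input. Bars on the red columns are 95% exact binomial intervals. The share at 0 in both drops from 2.59% at 50 to under 100 input counts to 0.0370% at 800 or more.

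The IDs at 0 in only one RIP library often had more than a stray count in the other. For the 431 IDs at 0 in RIP variant 1 alone, the count in RIP variant 2 had a median of 13 (quartiles 5 and 30, highest 184), and 160 had at least 20. For the 97 at 0 in RIP variant 2 alone, the median in RIP variant 1 was 10 (quartiles 4 and 20, highest 96), and 25 had at least 20. In the inputs of variants 1 and 2, the 431 had higher median counts (177 and 210.5) than the 96 (126.5 and 162.25), and the 97 had medians of 128.5 and 168.5. With 1 RIP library per variant, a difference between the variants and a difference between any pair of precipitations cannot be told apart.

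The limits of the rule fall within a continuous range. Another 45 input-expressed IDs had more than 0 and at most 1 count in all over both RIP libraries, and 77 had more than 1 and at most 3. The most abundant of the 45 had 1260.51 counts in the input of variant 1 and 1392.55 in that of variant 2, with 0 and 1 in the RIP libraries, a higher mean level than all but 2 of the members. Just inside the input limit lay a member with 50 and 143 input counts (variants 1 and 2) and one with 95 and 50. Just outside it were IDs with 48.5 and 72, and with 48.5 and 66.5. Of the 1722 IDs whose lower input held 25 to under 50 counts, 56 (3.25%) were at 0 in both RIP libraries.

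Between the inputs of the variants, most members were less than 2-fold apart. This comparison sets 1 library against another and has no test, and an ID was counted as apart at 2-fold or more by the log2 ratio of TMM-scaled CPM (prior count 2). Of the 96, 8 were higher in the input of variant 2 and 9 higher in that of variant 1. Together these are 17 IDs (17.7%), against 7.18% of the 15436 IDs (3.41% higher with variant 2 and 3.77% higher with variant 1). The share followed input level. For 50 to under 100 counts in the lower input, 14 of 43 members (32.6%) and 28.8% of all IDs in that range were apart. From 100 to under 200 counts the shares were 2 of 31 (6.45%) and 18.9%, and from 200 to under 400 counts 1 of 16 (6.25%) and 11.1%. None of the 6 members above that was apart. The members' share was thus above that of all IDs in the lowest range and below it in the others, with few members in each. The median log2 difference (variant 2 minus variant 1) was -0.08 over the 96 and -0.01 over the 15436, with 44 of the 96 above 0.

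The members furthest apart were at low counts in one input. ENSG00000267213 had 50.5 counts in the input of variant 1 (1.52 TMM-scaled CPM) and 191 in that of variant 2 (4.84), 3.19-fold higher with variant 2. ENSG00000258800 had 51.5 and 165.5 counts in the inputs of variants 1 and 2 (1.55 and 4.20 TMM-scaled CPM), 2.71-fold higher with variant 2. In the other direction, ENSG00000207652 had 146.5 counts with variant 1 and 61.5 with variant 2 (4.40 and 1.56 TMM-scaled CPM), 2.82-fold higher with variant 1. ENSG00000265201 had 123 and 56 counts with variants 1 and 2 (3.69 and 1.42 TMM-scaled CPM), 2.60-fold higher with variant 1. On library totals, the exact Poisson intervals of ENSG00000267213 spanned 0.744 to 1.32 CPM (input of variant 1) and 2.80 to 3.74 CPM (input of variant 2). These 4 were named as the members furthest apart, and such intervals hold counting error only, so they do not show a difference between the lines. None of the first 10 members by input level was counted as apart. The member of rank 11 was, with 431.5 counts in the input of variant 1 and 246 in that of variant 2. It was 2.08-fold higher with variant 1.

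**Figure D4:**
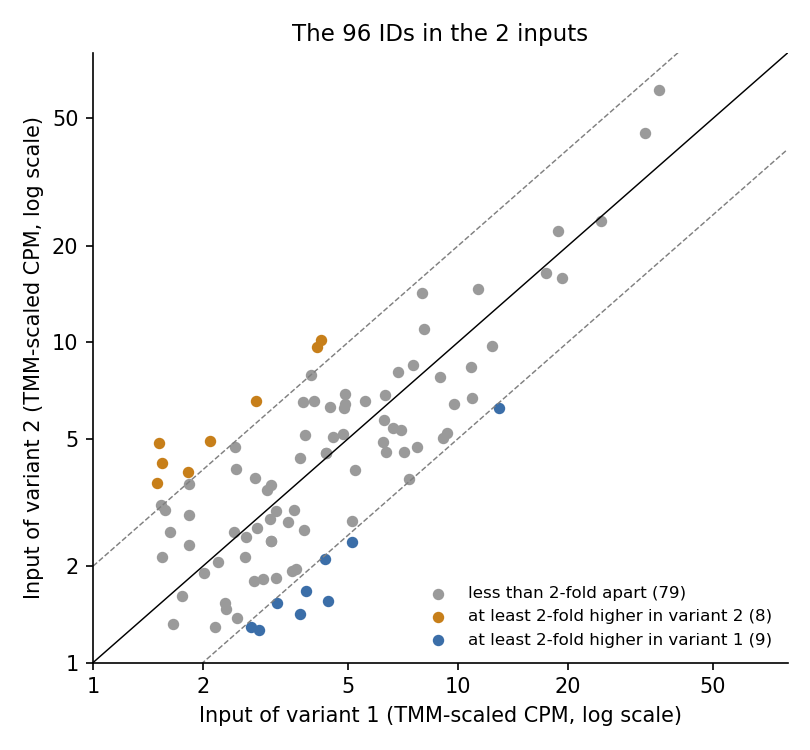
Level of each of the 96 IDs in the input of variant 1 (horizontal) and of variant 2 (vertical), in TMM-scaled CPM on log scales. The solid line marks equal levels and the dashed lines 2-fold. The 8 IDs at least 2-fold higher with variant 2 and the 9 higher with variant 1 lie mostly below 10 TMM-scaled CPM.

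Fractional counts were common among the members and among all input-expressed IDs. Such parts of a read can arise when 1 read is divided between genes or positions, but how they arose here is not known. A count holding part of a read was present in at least one input for 56 of the 96 (58.3%), against 50.2% of the 15436 IDs. For 38 members (39.6%, against 30.1%) the part was always 0.5 of a read, and for 18 (18.8%, against 20.1%) it was another fraction. The other 40 members had whole counts in both inputs. For 50 to under 100 counts in the lower input, 51.2% of members and 47.9% of all IDs had a fraction. The shares were 61.3% and 55.5% from 100 to under 200 counts, and 68.8% and 53.5% from 200 to under 400. Since the rule sets both RIP values to 0, identity between members rests on the inputs alone. It joined 4 members (4.17%) into 2 pairs, so the 96 hold 94 distinct measurements. Of the 15436 IDs, 26 (0.168%) were identical to another ID, and for them all 4 libraries had to match. The 4 paired IDs had 102.67 and 94.33 counts in the inputs of variants 1 and 2 in one pair, and 145 and 177.5 in the other.

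In the row order of the deposited tables, 10 of the 96 lay directly beside another member, in 5 pairs, against 0.713% of the 15436 IDs. Both pairs of identical IDs are among the 5. ENSG00000178531 formed another pair, with a member that had 228 counts in the input of variant 1 and 319.5 in that of variant 2. The remaining pairs were a member with 101.5 and 111 input counts beside one with 232 and 210.5, and a member with 163.5 and 253.5 beside one with 125.5 and 257.5. Genome positions were not used here, so how far apart such rows lie is not known.

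In whether an adjacent row had a RIP count, the members were close to the other input-expressed IDs. At least one adjacent row was counted in a RIP library for 95 of the 96 (99.0%, against 99.1% of the 15436), and in each RIP library for 88 (91.7%, against 94.0%). The highest RIP count on an adjacent row, taken for each library separately, had a median of 90.5 with variant 1 and 110 with variant 2. Beside the 15436 input-expressed IDs these medians were 76.915 and 104. The highest summed input count on an adjacent row, which need not be the same row, was larger beside the members. Its median was 2094 against 756.74.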

How the data were processed

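RNA was sequenced from 4 libraries of MiaPaCa cells, 1 RIP and 1 input library for each of 2 SRP9 variants. HISAT2 2.1.0, featureCounts, Subread 2.0.0 and the build GRCh38.p13 appear in the submitters' processing notes. For the annotation, strandedness, multi-mapping reads and read pairs, the settings were not given in the sources used here. What the authors deposited are estimated counts per Ensembl gene ID, with fractions of a read and no normalization as far as the file headers and the differing totals show. Strand is not known, so overlapping genes and near-identical copies may have exchanged reads.

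The members were found on the values as deposited, without rounding. They and the planned comparisons were chosen with earlier results of these data known. Counts rounded to whole numbers gave the TMM factors (edgeR 4.0.16, R 4.3.3) over the 41622 IDs that passed filterByExpr with RIP and input as groups (minimum count 10), among them all 96 members. Ratios of single libraries used a prior count of 2 on average, in proportion to the scaled library totals. Bounds used a floor of 3 counts per library. A value was taken as whole within 0.005. The calculations were tested on simulated data. Each group is 1 library, so no test was run and no p-value is given. Members to be described were the highest and lowest by input level, those furthest apart between the inputs and those next to the rule's limits. Only a few IDs are printed because the sources used here do not pair them with names. Alternatives varied the rule's limits, the scaling, the prior count and the floor.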

Additional observations from a re-analysis of the deposited data

How the results depend on the processing

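The number of IDs with input counts and no RIP count moved with the limits of the rule. It was 96 as described, 152 with a minimum of 25 input counts, 53 with a minimum of 100, and 145 with up to 1 count allowed in each RIP library. With a 0 asked of RIP variant 1 alone it was 527, and of RIP variant 2 alone 193, both chosen after seeing the data. It stayed at 96 when values under 0.5 were taken as 0. It was 89 with the same CPM minimum in both inputs, and 94 with identical IDs counted once. The number of members at least 2-fold apart between the inputs, 17 as described, was between 15 and 22 with library totals, DESeq2 size factors, TMM without a filter, a prior count of 0.5 and identical IDs counted once. The median of each member's smaller bound of input over RIP was 6.76-fold as described. It was 2.99-fold on library totals, 5.38-fold with DESeq2 size factors, 7.64-fold with TMM on all IDs and 3.38-fold with a floor of 6 counts. The share of small noncoding RNA genes among the members, and its alternatives, could not be computed without gene names. No paired analysis was run, since no result here comes from a test. A fit of RIP against input blocked by variant, with 1 residual degree of freedom, could be made but was left out, since it would test the contrast that chose the members. Each bound already sets a RIP library against its own input. The depth of the RIP libraries limits the bounds. On library totals the median of the counts that members would have in RIP at their input level was 9.83 with variant 1 and 14.4 with variant 2, and 13 members would have under 5 with variant 1.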
